A study of Mus musculus with 14 samples.

Results

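The genomic regions bound by the zinc-finger transcription factors Sp5 and Zeb2 were compared in mouse gastruloids. The regions were chosen from 4 chromatin immunoprecipitation (ChIP-seq) peak lists, 2 for each factor, of the 14 libraries in the series. Peaks that overlapped a peak of an input library were dropped, overlapping peaks of the 2 libraries of a factor were merged (at least 1 bp), and merged regions with a peak in both libraries were kept. This gave 10953 Sp5 regions and 10172 Zeb2 regions. Joined where they overlapped, they made 16597 regions: 6462 of Sp5 only, 5684 of Zeb2 only and 4451 of both factors.

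Gastruloids are aggregates of embryonic stem cells that break symmetry and form an elongated body axis with cell types of the trunk and tail bud. All 4 libraries came from gastruloids at 120 h, made from an E14 mouse embryonic stem cell line that carries a BRA-GFP and a SOX17-RFP reporter, and given a pulse of CHIR99021, an activator of Wnt signalling, during culture. In the Sp5 line and in the Zeb2 line the factor was tagged at its own gene with an HA epitope joined to an FKBP12F36V degron, and both factors were precipitated with the same mixture of HA antibodies after double crosslinking. The other libraries used here were p300 (a V5-tagged histone acetyltransferase found at active enhancers and promoters) and RXRα (a nuclear receptor, also HA-tagged), each with 2 libraries in gastruloids and 2 in embryonic stem cells, and 2 inputs from the p300 line. Inputs of the Sp5 and Zeb2 lines, and HA precipitations from an untagged line, were not analysed here. The labels do not say whether the 2 libraries of a factor came from separate cultures, nor how many clones each line represents, so the spread between libraries may be technical.

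Sp5 belongs to the Sp family, whose members bind GC-rich boxes in promoters. It is induced by Wnt and β-catenin signalling in the primitive streak and tail bud, where it acts with its relative Sp8, and it can repress genes that other Sp factors activate. Zeb2 binds paired E-boxes through separate clusters of zinc fingers, recruits corepressors, and is known for switching off E-cadherin and other epithelial genes during epithelial-to-mesenchymal transition and in the neural crest.

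The 4 lists differed in length before any comparison. After input peaks were removed, Sp5 replicates 1 and 2 held 19714 and 11932 peaks, and Zeb2 replicates 1 and 2 held 44310 and 12222. Of the Sp5 peaks, 56.6% of replicate 1 and 92.1% of replicate 2 were also in the other replicate. Of the Zeb2 peaks, 22.96% of replicate 1 and 88.1% of replicate 2 were. The number of reads per library was not given, and the number of fragments at a summit (the highest point of a peak) was recovered from the deposited fold enrichment and p. Its median over each whole list was 21 and 26 for Sp5 and 17 and 12 for Zeb2. These lists differ in length, so the medians are not over the same regions. At the regions of both factors the medians were 36 and 29 for Sp5 and 39 and 14 for Zeb2. Zeb2 replicate 2 therefore had the fewest fragments per peak, and Zeb2 replicate 1 stood apart by its length.

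This inequality bears on the classes. Of the 6462 Sp5-only regions, 5133 (79.4%) held a peak of Zeb2 replicate 1, 46 (0.712%) held a peak of Zeb2 replicate 2, and 1299 (20.1%) held no Zeb2 peak at all. In 16 of them both Zeb2 libraries had a peak, but these did not join into a Zeb2 region, and the same held for Sp5 in 22 Zeb2-only regions. Of the 5684 Zeb2-only regions, 1553 (27.3%) held a peak of Sp5 replicate 1, 149 (2.62%) a peak of Sp5 replicate 2, and 4004 (70.4%) no Sp5 peak. The Zeb2 replicate 1 peaks at Sp5-only regions were weaker than those at joint regions, with a median fold of 4.997 and 22 fragments against 7.51 and 38. They were stronger than the Zeb2 replicate 1 peaks outside the regions of either factor, which had a median fold of 4.29 and 13 fragments. Most Sp5-only regions thus were regions where Zeb2 was called in 1 library and not in the other, and results by class are given below also for the regions with no peak of the other factor.

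**Figure D1:**
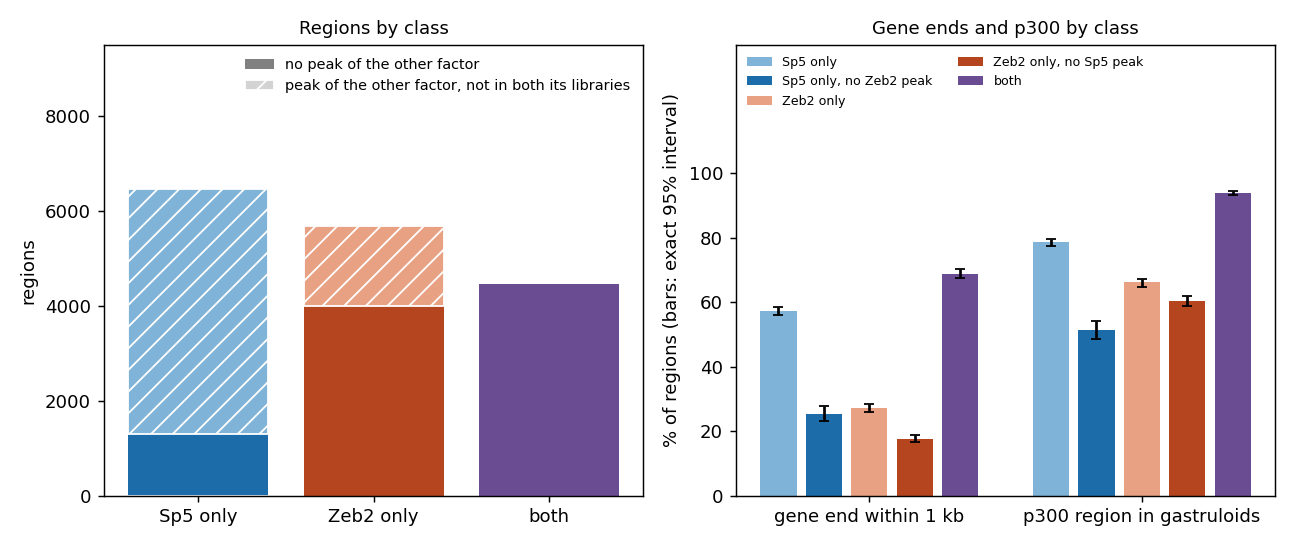
Left, the number of regions of each class, with the hatched part holding a peak of the other factor but no region of it. Right, the percentage of regions with a gene end within 1 kb of the summit and with a p300 region of gastruloids, with exact 95% binomial intervals. Of the Sp5-only regions 1299 of 6462 had no Zeb2 peak, and their share at gene ends was 25.4% against 57.4% for all Sp5-only regions.

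To show what lies under the summits, the strongest promoters of each class are printed first. Each sequence is the 101 bp window on the summit, upstream of the transcription start and outside every gene of the RefSeq table (build GRCm38.p6), written 5′ to 3′ on the strand of the gene. Capitals mark 3 motifs on either strand: the GC box GGGCGG bound by Sp factors, and CAGGTG and CAGGTA, the E-boxes bound by Zeb factors. The 4 windows shown per class are those with the highest mean rank of fold enrichment within the libraries, whether or not they held a motif. Gene models without a proper name were passed over.

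Among Sp5-only regions the 4 windows lay at Ap1s1 (a subunit of the clathrin adaptor AP-1, chr5:137046152-137046252, minus strand), Psmd14 (a deubiquitinase of the proteasome, chr2:61711535-61711635, plus strand), Cep112 (a centrosomal protein, chr11:108425093-108425193, plus strand) and Clp1 (an RNA kinase, chr2:84727382-84727482, minus strand).
Ap1s1: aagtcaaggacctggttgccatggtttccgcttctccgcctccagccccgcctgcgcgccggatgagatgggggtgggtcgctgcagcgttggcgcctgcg
Psmd14: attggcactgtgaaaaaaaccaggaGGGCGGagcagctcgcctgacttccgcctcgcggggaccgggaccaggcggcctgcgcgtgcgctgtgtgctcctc
Cep112: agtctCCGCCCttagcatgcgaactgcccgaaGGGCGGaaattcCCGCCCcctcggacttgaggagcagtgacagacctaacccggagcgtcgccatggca
Clp1: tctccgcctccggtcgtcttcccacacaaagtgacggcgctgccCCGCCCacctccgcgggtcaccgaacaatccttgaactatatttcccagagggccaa
Ap1s1 held none of the 3 motifs, Psmd14 and Clp1 held 1 GC box each, and Cep112 held 3. No Zeb E-box was found in the 4 windows. The folds in Sp5 replicates 1 and 2 were 31.5 and 20.8 at Ap1s1, 28.5 and 18.6 at Psmd14, 27.5 and 18.3 at Cep112, and 28.2 and 17.7 at Clp1. Zeb2 replicate 1 had peaks with folds of 3.98 to 6.56 at the 4 genes, and Zeb2 replicate 2 had none.

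Among Zeb2-only regions the windows lay at Gcc1 (a golgin, chr6:28421767-28421867, minus strand), Mfsd6l (chr11:68556025-68556125, plus strand), Pacrgl (chr5:48372179-48372279, plus strand) and Fam187b (chr7:30973557-30973657, plus strand).
Gcc1: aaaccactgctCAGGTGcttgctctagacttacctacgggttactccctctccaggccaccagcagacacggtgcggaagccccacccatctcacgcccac
Mfsd6l: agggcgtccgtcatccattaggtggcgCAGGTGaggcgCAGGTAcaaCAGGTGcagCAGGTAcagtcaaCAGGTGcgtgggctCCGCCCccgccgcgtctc
Pacrgl: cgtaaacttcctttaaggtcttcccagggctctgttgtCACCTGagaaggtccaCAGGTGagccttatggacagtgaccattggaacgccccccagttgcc
Fam187b: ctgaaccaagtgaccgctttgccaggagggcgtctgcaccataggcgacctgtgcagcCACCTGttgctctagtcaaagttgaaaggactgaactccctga
Every one of the 4 windows held CAGGTG, with 3 copies at Mfsd6l, 2 at Pacrgl and 1 at Gcc1 and at Fam187b. Mfsd6l also held 2 copies of CAGGTA and the only GC box of the 4 windows. The folds in Zeb2 replicates 1 and 2 were 20.0 and 21.1 at Gcc1, 22.9 and 17.9 at Mfsd6l, 21.9 and 12.3 at Pacrgl, and 15.1 and 11.4 at Fam187b. Sp5 had no peak at Mfsd6l in either library. Sp5 replicate 1 had peaks at Gcc1 and Pacrgl, with folds of 4.83 and 6.24, and both Sp5 libraries had peaks at Fam187b, with folds of 4.68 and 4.14, that did not join into an Sp5 region.

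Among regions of both factors the windows, here centred on the Zeb2 summit, lay at Supt4a (a subunit of the elongation factor DSIF, chr11:87737380-87737480, plus strand), Scamp5 (a secretory carrier membrane protein, chr9:57468176-57468276, minus strand), Yeats2 (a reader of histone acylation, chr16:20140913-20141013, plus strand) and Reps2 (an endocytosis protein, chrX:162643731-162643831, minus strand).
Supt4a: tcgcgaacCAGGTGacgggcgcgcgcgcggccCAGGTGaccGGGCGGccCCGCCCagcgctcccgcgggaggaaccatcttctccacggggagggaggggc
Scamp5: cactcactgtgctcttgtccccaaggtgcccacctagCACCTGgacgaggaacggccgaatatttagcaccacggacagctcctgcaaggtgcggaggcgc
Yeats2: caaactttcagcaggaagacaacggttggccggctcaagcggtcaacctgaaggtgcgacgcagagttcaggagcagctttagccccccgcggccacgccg
Reps2: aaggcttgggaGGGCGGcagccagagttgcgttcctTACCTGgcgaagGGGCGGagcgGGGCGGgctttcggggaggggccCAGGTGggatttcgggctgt
Supt4a and Reps2 held both kinds of motif in the same window, with 2 GC boxes and 2 CAGGTG at Supt4a and with 3 GC boxes, 1 CAGGTG and 1 CAGGTA at Reps2. Scamp5 held 1 CAGGTG and no GC box, and Yeats2 held none of the 3 motifs. The folds at Supt4a were 19.5 and 13.4 in the Sp5 libraries and 20.7 and 15.2 in the Zeb2 libraries.

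The same motifs were counted in every 101 bp window on a summit that fell inside one of the 32817 promoter windows, which reach from 250 bp before to 50 bp after a start. GGGCGG was present in 72.1% and 72.0% of the windows of Sp5 replicates 1 and 2 (4625 and 3166 windows) and in 33.0% and 38.7% of those of Zeb2 (2219 and 1092 windows). The 2 Sp5 libraries were both above the 2 Zeb2 libraries, by 36.2 percentage points on average (exact permutation test over libraries, two-sided, p = 0.333, the smallest p that 2 against 2 allows). The p300 libraries gave 39.3% and 40.2%, close to Zeb2, and the middle of all promoter windows 18.97%. CAGGTG ran the other way. It was present in 6.34% and 6.85% of Sp5 windows and in 25.5% and 33.0% of Zeb2 windows, against 8.05% and 8.09% for p300 and 7.63% for all promoters. The second Zeb E-box, CAGGTA, was in 1.56% and 1.61% of Sp5 windows, in 9.01% and 10.4% of Zeb2 windows, in 1.91% and 2.08% of p300 windows and in 3.90% of all promoters. Sp5 and p300 were both below all promoters for CAGGTA, and Zeb2 was above them in both libraries.

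Other motifs differed less between the factors in percentage points, though for each of them the libraries of Sp5 again lay on one side of those of Zeb2. CAGCTG, an E-box of other factors that differs from the Zeb E-box in its centre, was in 5.51% and 4.71% of Sp5 windows, in 6.80% and 7.05% of Zeb2 windows and in 5.56% of all promoters, so that Sp5 minus Zeb2 was -1.82 points, where for CAGGTG it was -22.6 points. The Tcf/Lef motif ATCAAAG, through which Wnt signalling reaches DNA, was in 0.476% and 0.632% of Sp5 windows, 0.856% and 0.733% of Zeb2 windows and 1.25% of all promoters. A Cdx/Hox motif, TTTATGG, was in 0.411% and 0.379% of Sp5 and in 0.856% and 1.01% of Zeb2 windows. These shares rest on 19 and 12 Sp5 windows and on 19 and 11 Zeb2 windows. The AP-1 motif TGACTCA was in 0.865% and 0.663% of Sp5 and in 1.17% and 0.916% of Zeb2 windows. Motifs as rare as these can differ only little in points, whatever their relative difference. Base composition differed between these sets: the median GC content was 69.3% in both Sp5 libraries, 64.4% and 65.3% in the Zeb2 libraries, 65.3% in both p300 libraries and 53.5% over all promoters. The part of GC content in the GC-box shares was not tested. These windows cover only summits from about 200 bp upstream up to the start, so they say nothing of distal regions or of summits downstream of a start.

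**Figure D2:**
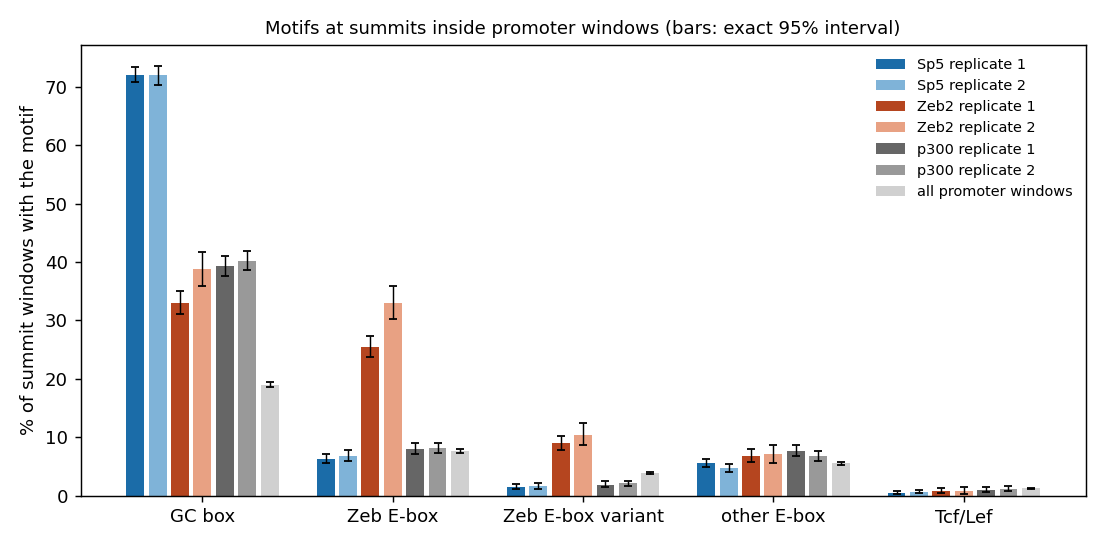
The percentage of 101 bp summit windows that held each motif on either strand, for each Sp5, Zeb2 and p300 library in gastruloids and for the middle of all promoter windows, with exact 95% binomial intervals. The GC box was in 72.1% and 72.0% of Sp5 windows against 33.0% and 38.7% of Zeb2 windows, and the Zeb E-box in 6.34% and 6.85% against 25.5% and 33.0%.

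The classes kept this order. The GC box was in 77.0% of 1891 Sp5-only windows and 21.5% of 316 Zeb2-only windows, and CAGGTG in 3.97% and 39.9%. With only the regions that held no peak of the other factor, the GC box was in 76.8% of 155 Sp5 windows and 23.8% of 130 Zeb2 windows. CAGGTG was then in 57 (43.8%) of the Zeb2 windows and in 0 of the 155 Sp5 windows, which allows a share of up to 2.35% (upper end of the exact 95% interval). In regions of both factors the motif shares differed with the summit that was taken. Windows on the Sp5 summit held the GC box in 77.9% and CAGGTG in 9.38% (1578 windows). Windows on the Zeb2 summit of such regions held the GC box in 41.6% and CAGGTG in 37.0% (560 windows). Only summits inside promoter windows were counted, so these 1578 and 560 windows are not pairs from the same regions. The 2 sets of windows thus differed in the same direction as the single-factor regions. The GC box at the Zeb2 summit and CAGGTG at the Sp5 summit were more frequent than in the Zeb2-only and Sp5-only regions.

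Sp5 and Zeb2 summits also lay at different distances from the transcription start. The start and strand were known for 17492 of the 21887 protein-coding genes. Within 1 kb of a known start, the median Sp5 summit lay 27 and 26 bp upstream in replicates 1 and 2, and 52.7% and 49.4% of these summits were within 100 bp of the start. The median Zeb2 summit lay 115 and 90 bp downstream, with 20.5% and 23.6% within 100 bp. Of the Sp5 summits, 60.1% and 58.6% were upstream of the start, against 35.1% and 38.3% of the Zeb2 summits and 45.1% and 49.2% of the p300 summits. The ranges of the Sp5 and Zeb2 libraries did not overlap in any of these measures.

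**Figure D3:**
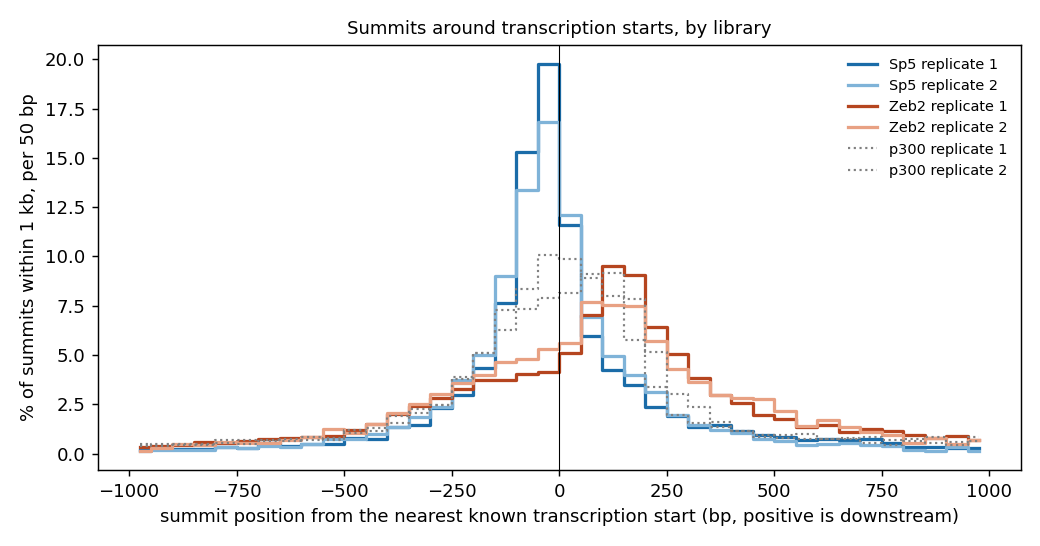
The position of summits from the nearest known transcription start, in 50 bp steps and as a percentage of the summits within 1 kb, for each library. Sp5 peaked just upstream of the start (medians of 27 and 26 bp upstream), Zeb2 downstream of it (medians of 115 and 90 bp), and p300 (dotted) spread over both sides.

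Within the 4451 joint regions the strongest Sp5 and the strongest Zeb2 summit were a median of 190 bp apart (quartiles 80 and 353 bp), and 16.96% were within 50 bp. The 4 pairings of a Sp5 with a Zeb2 library gave medians of 180 to 191 bp. In the same regions the summits of the 2 Sp5 libraries were 36 bp apart and those of the 2 Zeb2 libraries 55 bp, with 60.8% and 47.5% within 50 bp. The distance between factors was therefore larger than the distance between libraries of either factor. Joint regions at gene ends had a larger median distance (213 bp, 3067 regions) than those away from gene ends (128.5 bp, 1384 regions, of which 26.9% were within 50 bp). At the 2810 joint regions within 1 kb of a known start, Zeb2 lay downstream of Sp5 in 61.3%, and in 58.0% to 61.5% over the 4 library pairings. The median Sp5 summit of these regions was 36 bp upstream of the start and the median Zeb2 summit 114 bp downstream.

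**Figure D4:**
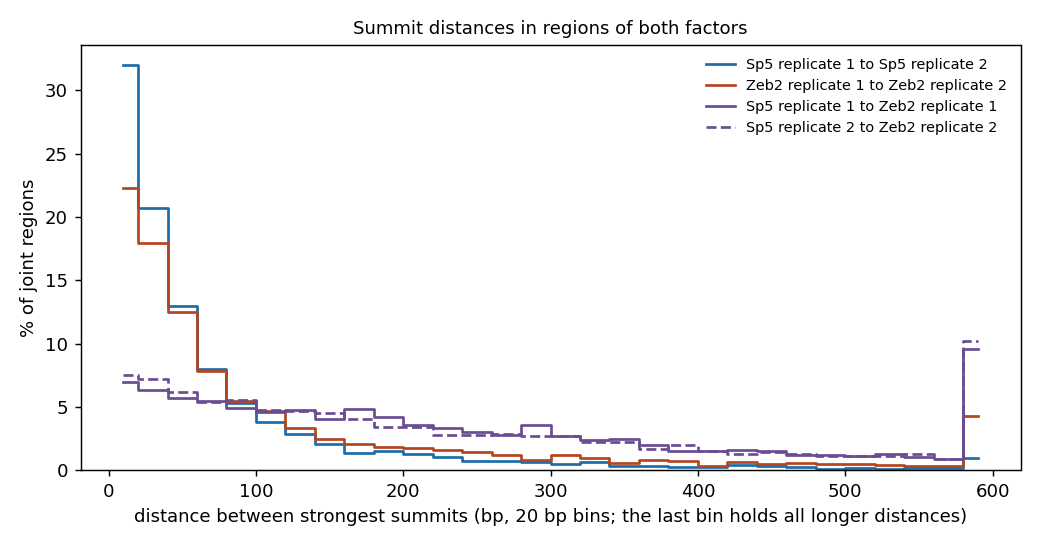
Distances between the strongest summits of 2 libraries in the 4451 joint regions, in 20 bp bins, with the last bin holding all longer distances. Libraries of the same factor (blue and red) had medians of 36 and 55 bp, and the 2 pairings of Sp5 with Zeb2 shown (purple) spread more widely, with medians of 191 and 180 bp.

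Sp5 was nearer to genes than Zeb2. A gene end, either the first or the last base of a protein-coding gene, lay within 1 kb of 49.4% and 59.6% of the Sp5 summits and of 28.8% and 42.6% of the Zeb2 summits. The difference of the means was 18.7 percentage points, with Sp5 at 54.5% ± 7.25 and Zeb2 at 35.7% ± 9.77 (SD, n = 2; exact permutation test, two-sided, p = 0.333, the smallest possible). Cut to the strongest 11932 peaks, the lists gave 59.0% and 59.6% for Sp5 and 46.9% and 43.0% for Zeb2. Known starts in place of gene ends gave 44.3% and 53.6% against 25.0% and 37.9%. In all 3 forms both Sp5 libraries were above both Zeb2 libraries. Nearly all of the regions at the ends of genes with a known start were at the start: 94.5% for Sp5 only, 89.4% for Zeb2 only and 96.3% for both.

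The share at gene ends fell with the strength of the peaks in 3 of the 4 lists. In Sp5 replicate 1 it went from 65.3% in the strongest 25% of peaks by fold to 33.5% in the weakest 25%, and in Sp5 replicate 2 from 66.4% to 52.8%. In Zeb2 replicate 1 it went from 43.2% to 20.8%. In Zeb2 replicate 2 it was between 42.0% and 43.7% at every level of strength. Among the strongest peaks, the share at gene ends was lower in both Zeb2 libraries than in both Sp5 libraries.

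By class, 57.4% of Sp5-only, 27.2% of Zeb2-only and 68.9% of joint regions were at gene ends. The median distance to the nearest gene end was 444 bp, 8683 bp and 337 bp. At the far end, 12.2% of Zeb2-only regions lay over 100 kb from any gene end, against 3.93% of Sp5-only and 2.72% of joint regions. Most of the gap between the single-factor classes went with the regions that held a Zeb2 peak in 1 library. Without a peak of the other factor, 25.4% of Sp5-only and 17.7% of Zeb2-only regions were at gene ends, a difference of 7.72 points in place of 30.2. Sp5-only regions that did hold a Zeb2 peak were at gene ends in 65.5%, near the 68.9% of joint regions. Leaving out Zeb2 replicate 2 gave a difference of 7.97 points.

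p300, the acetyltransferase of active regulatory DNA, was found at most regions of every class. A p300 region of gastruloids (a peak in both p300 libraries) overlapped 78.6% of Sp5-only, 66.2% of Zeb2-only and 94.0% of joint regions. Joint regions were also the widest, with a median of 981 bp against 510 and 528 bp, and the part of width in these overlaps was not tested. At gene ends the shares were 86.1%, 67.2% and 95.1%, and away from gene ends 68.6%, 65.8% and 91.4%. The order of the single-factor classes turned over when partial regions were left out: 51.3% of Sp5-only regions with no Zeb2 peak and 60.4% of Zeb2-only regions with no Sp5 peak held p300, a difference of -9.04 points in place of 12.5. Without Sp5 replicate 2 the difference was -0.848 points. By library, p300 regions covered 69.3% and 82.2% of the Sp5 peaks and 51.4% and 69.3% of the Zeb2 peaks (exact permutation test, two-sided, p = 0.333). The lower Sp5 and the higher Zeb2 library were nearly equal, at 69.31% and 69.27%. The shares were, at equal list length, 80.7% and 82.2% against 78.3% and 70.0%. For peaks with a −log10 q of at least 5 the 4 libraries no longer separated by factor (exact permutation test, p = 0.667). The p300 difference between the single-factor classes thus changed sign with the choice of regions, while the share at joint regions was between 88.3% and 95.4% under all alternatives run.

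p300 regions of embryonic stem cells, the state from which gastruloids are made, overlapped 12.9% of Sp5-only, 17.8% of Zeb2-only and 22.4% of joint regions. Among regions with p300 in gastruloids, 15.4%, 24.1% and 23.5% also had it in stem cells. The 40122 gastruloid p300 regions that overlapped no Sp5-only, Zeb2-only or joint region overlapped stem-cell p300 in 27.0%, and only 6.25% were at gene ends. Peaks of either factor outside those classes were not excluded here, so some of these p300 regions may hold such a peak.

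RXRα was precipitated with the same HA antibodies from another line. Its gastruloid regions overlapped 6.41% of Sp5-only, 6.26% of Zeb2-only and 14.5% of joint regions, but its replicate 2 held only 3111 peaks. Peaks of RXRα replicate 1 alone (29867 peaks) overlapped 60.6% of Sp5-only, 39.0% of Zeb2-only and 84.5% of joint regions. In regions with no peak of the other factor, these shares were 26.5% for Sp5 and 29.3% for Zeb2. The part of the shared antibody in these overlaps was not tested.

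Regions were assigned to the protein-coding gene with the nearest end within 100 kb, and 13 lists of genes of gastruloid biology were counted. Over all 21887 genes, 24.5% had an Sp5-only region, 18.4% a Zeb2-only region and 18.6% a joint region. These shares are the background for the lists. For counts of regions the background is the Sp5-only share of the single-factor regions. Over all genes it was 55.4%, and 25.5% among those with no peak of the other factor. To keep list length out of the comparison, genes with an assigned peak were also counted in each library at 11932 peaks per list, where the background was 41.2% and 41.6% of all genes for Sp5 and 37.9% and 35.2% for Zeb2. The nearest gene need not be the one that a region controls.

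Among the 13 lists, the epithelial genes differed most between the factors in the share of genes with a peak at equal list length. Of 33 genes of epithelial junctions and their regulators, 32 had a peak in Zeb2 replicate 1 and 32 in Zeb2 replicate 2 at equal list length, against 16 and 20 in the Sp5 libraries. The Zeb2 lists thus reached 97.0% of the genes in both libraries, and the Sp5 lists 48.5% and 60.6%, nearer to their background. By class, 26 genes had a Zeb2-only region, 13 a joint region and 8 an Sp5-only region. There were 36 Zeb2-only, 14 joint and 8 Sp5-only regions, so Sp5-only made up 18.2% of the single-factor regions of the list, against 55.4% over all genes. Without partial regions, 28 Zeb2-only and 2 Sp5-only regions were left (6.67%), against 25.5% over all genes. By that share the epithelial list was not the lowest: Wnt genes were at 5.26%, and EMT and endoderm genes, with few regions, at 0. No test of the list was made, since its genes were chosen with earlier results of these data known.

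Cdh1, which codes for E-cadherin, had a single region, of Zeb2 only, at chr8:106602911-106604458. Its summit lay 32 bp from the lower-coordinate end of the gene. The start of Cdh1 was not among the known starts, so this end may be the start. Zeb2 replicates 1 and 2 had folds of 10.2 and 11.2 there, with 134 and 56 fragments, and no Sp5 peak was present. Both gastruloid p300 libraries had weak peaks in it, with folds of 2.49 and 4.25 and 18 and 21 fragments, which did not overlap each other and so made no p300 region. A p300 region of embryonic stem cells did overlap it, with folds of 5.12 and 5.06. Grhl2, a transcription factor of epithelial cells, had 3 Zeb2-only regions with folds of 16.1, 11.996 and 14.5 in replicate 1 and 11.1, 11.2 and 5.80 in replicate 2, and 1 Sp5-only region. Sp5 replicate 1 had a peak with a fold of 7.36 at the first of them. Dsp, which codes for the desmosomal protein desmoplakin, had 4 Zeb2-only regions, the strongest with folds of 19.3 and 13.2 at chr13:38108981-38109532, and 1 Sp5-only region 8 bp from its start. That region had Sp5 folds of 6.63 and 4.48 and also held a Zeb2 replicate 1 peak with a fold of 6.74 and 53 fragments. Epcam, an epithelial adhesion molecule, had 2 joint regions. The one 1234 bp from its start (chr17:87635746-87637371) had folds of 9.76 and 4.63 for Sp5 and 8.58 and 9.03 for Zeb2. F11r, a junctional adhesion molecule, had 1 region of each class.

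**Figure D5:**
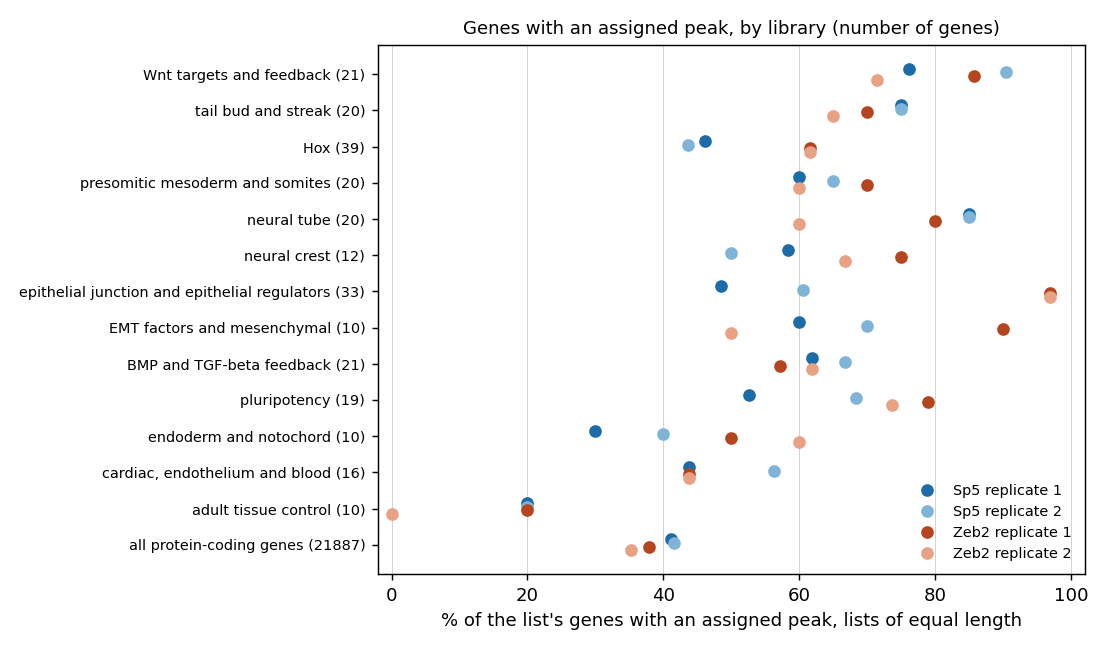
The percentage of genes of each list with an assigned peak in each library, with all 4 lists at 11932 peaks and the number of genes in brackets. Both Zeb2 libraries reached 97.0% of the epithelial genes and the Sp5 libraries 48.5% and 60.6%, while over all genes the 4 libraries lay between 35.2% and 41.6%.

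Genes of the Wnt pathway, which induces Sp5, were reached by both factors. Of 21 Wnt targets and feedback genes, 16 and 19 had a peak in the Sp5 libraries and 18 and 15 in the Zeb2 libraries at equal length. The ranges overlapped, and the shares were 71.4% to 90.5%, above the background of each library. This was not particular to Wnt genes. Of the other lists, only endoderm and notochord and the adult control genes were not above the background in every library. The list held 16 Sp5-only, 21 Zeb2-only and 16 joint regions, on 12, 12 and 11 genes. Without the regions that held a peak of the other factor, 1 Sp5-only and 18 Zeb2-only regions were left, so 15 of the 16 Sp5-only regions also held a Zeb2 peak. Sp5 itself had 2 Sp5-only regions. The stronger lay 17783 bp from the gene (chr2:70456834-70457375), with folds of 16.8 and 15.4 and 69 and 85 fragments, and the other 16 bp from the start (chr2:70474449-70475218), with folds of 4.82 and 6.24. Zeb2 replicate 1 also had peaks at both, with folds of 5.38 and 3.68 in its own list, and Zeb2 replicate 2 had none.

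Sp8, the close relative of Sp5, had 2 joint and 3 Zeb2-only regions. The joint region at its start (chr12:118846775-118847552) had folds of 15.5 and 11.3 for Sp5 and 6.18 and 4.18 for Zeb2. Axin2, a feedback inhibitor of Wnt signalling, had an Sp5-only region 57 bp from a start (chr11:108920073-108921592) with folds of 15.7 and 8.80, where Zeb2 replicate 1 had a fold of 4.98, and a Zeb2-only region 23740 bp from the gene end with folds of 6.13 and 3.52. Lef1, a transcription factor of the pathway, had 2 Sp5-only regions, 1 Zeb2-only region and 1 joint region. Znrf3, a ubiquitin ligase that removes Wnt receptors, had 5 Zeb2-only and 2 joint regions, the strongest of Zeb2 only with folds of 16.3 and 14.4. Nkd1, an inhibitor of the pathway, had 2 Sp5-only, 2 joint and 1 Zeb2-only region.

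Zeb2 had 2 regions at its own gene, both of Zeb2 only. One lay inside the gene, 54257 bp from its end (chr2:45037563-45038034), with folds of 17.3 and 12.3 and 103 and 37 fragments. The other lay 87986 bp outside it, with folds of 11.4 and 5.64. Its relative Zeb1, also without a known start, had 1 Zeb2-only region with folds of 12.5 and 8.54, 818 bp from its lower-coordinate end. Zeb1 also had 1 Sp5-only region 44460 bp from its other end with folds of 10.2 and 5.03, where Zeb2 replicate 1 had a fold of 3.54. Each factor therefore had regions at its own locus that were not called for the other in both libraries.

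Tail bud and primitive streak genes had 15 Sp5-only, 24 Zeb2-only and 3 joint regions on 20 genes, of which 2 Sp5-only and 16 Zeb2-only regions had no peak of the other factor. At equal length 15 genes had a peak in each Sp5 library and 14 and 13 in the Zeb2 libraries. T, which codes for Brachyury, had 1 joint region, 195 bp from its start (chr17:8433233-8434709), with folds of 13.5 and 6.72 for Sp5 and 5.24 and 3.78 for Zeb2. Cdx2, a homeobox gene of the posterior body, had 2 Sp5-only and 2 Zeb2-only regions, each of which also held a replicate 1 peak of the other factor. Lhx1 had 4 Zeb2-only regions and 1 joint region, and Evx1 had 4 Zeb2-only regions and 1 Sp5-only region.

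Hox genes, which pattern the body axis, had 10 Sp5-only, 29 Zeb2-only and 14 joint regions, with 3 and 20 in the first 2 classes when no peak of the other factor was allowed. Of 39 Hox genes, 24 (61.5%) had a peak in each Zeb2 library at equal length, over a background of 37.9% and 35.2%. In the Sp5 libraries 18 and 17 had one (46.2% and 43.6%), near the background of 41.2% and 41.6%. Both Zeb2 libraries were above both Sp5 libraries here, as in the epithelial list and in 3 smaller lists. These were neural crest (9 and 8 of 12 genes against 7 and 6) and pluripotency (15 and 14 of 19 against 10 and 13). The other was endoderm and notochord (5 and 6 of 10 against 3 and 4). Both Sp5 libraries were above both Zeb2 libraries for neural tube genes (17 and 17 of 20 against 16 and 12). The same held for tail bud and streak genes (15 and 15 of 20 against 14 and 13). Hoxb1 had 2 joint, 2 Zeb2-only and 1 Sp5-only region, and Hoxb3 had 3 Zeb2-only regions and 1 joint region.

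Genes of the presomitic mesoderm and somites had 19 Sp5-only and 20 Zeb2-only regions (4 and 9 with no peak of the other factor). The Sp5-only share was 48.7%, against 55.4% over all genes. With no peak of the other factor it was 30.8%, against 25.5% over all genes. Within the list, 2 genes lay at opposite ends. Hes1, a repressor that oscillates in the presomitic mesoderm, had 7 Zeb2-only regions and 2 Sp5-only regions. Its strongest Zeb2-only regions, 53073 bp and 9681 bp from the gene end, had folds of 17.7 and 15.0 and of 14.7 and 14.1. Sp5 replicate 1 had peaks at both, with folds of 4.81 and 4.79. In all, 4 of the 7 held an Sp5 peak, and the one 2454 bp from the gene held peaks of both Sp5 libraries, with folds of 3.61 and 3.72. Uncx, a homeobox gene of the caudal part of the somite, had 5 Sp5-only regions and no Zeb2-only or joint region. The strongest, 8078 bp from the gene end (chr5:139535364-139536032), had folds of 12.2 and 12.2. Zeb2 replicate 1 had peaks at 4 of these 5 regions, with folds of 3.33 to 5.36. Aldh1a2, which makes retinoic acid, had 3 Zeb2-only regions and 1 Sp5-only region, the strongest of Zeb2 with folds of 15.0 and 12.4.

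Neural tube genes had 18 Sp5-only, 19 Zeb2-only and 7 joint regions (5 and 12 of the first 2 classes with no peak of the other factor). Sox2, a factor of neural and pluripotent cells, had 4 Zeb2-only regions and 1 Sp5-only region, and Neurog2, a neurogenic factor, had 3 and 1. Neural crest genes had 6 Sp5-only, 11 Zeb2-only and 3 joint regions (2 and 9 of the first 2 classes with no peak of the other factor), with Sox9 the only one of its 3 named genes with more Sp5-only (3) than Zeb2-only (2) regions. The Sp5 region 97977 bp from Sox9 had folds of 22.7 and 11.9, and Zeb2 replicate 1 had a fold of 5.12 there. Tfap2a, a neural crest factor, had a joint region 9288 bp from its end with folds of 20.8 and 14.6 for Sp5 and 7.996 and 5.20 for Zeb2.

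Genes of BMP and TGF-beta feedback had 14 Sp5-only, 19 Zeb2-only and 6 joint regions, and 12 to 14 of 21 genes had a peak in each library at equal length. Smad6, an inhibitory Smad, had 3 Zeb2-only, 2 Sp5-only and 1 joint region. Ski, a corepressor of Smads, had an Sp5-only region 613 bp from its start with folds of 21.3 and 12.2, where Zeb2 replicate 1 had a fold of 3.21. Of the single-factor regions, 5 Sp5-only and 14 Zeb2-only had no peak of the other factor. Pluripotency genes had 10 Sp5-only, 17 Zeb2-only and 5 joint regions, with 2 and 12 left in the first 2 classes on that condition. EMT factors and mesenchymal genes had 5, 4 and 2, endoderm and notochord genes 3, 7 and 2, and genes of heart, endothelium and blood 7, 10 and 2. With no peak of the other factor, EMT genes had 0 Sp5-only and 3 Zeb2-only regions, endoderm genes 0 and 5, and heart, endothelium and blood 4 and 7. Against the background of 25.5% on that condition, the Sp5-only share was 26.3% for BMP and TGF-beta feedback. It was 36.4% for heart, endothelium and blood, 30.8% for presomitic mesoderm and somites and 29.4% for neural tube genes. Tail bud and streak (11.1%), pluripotency (14.3%), neural crest (18.2%) and Hox genes were below the background, all on few regions. Cer1, a secreted antagonist of Nodal and BMP, had 1 Zeb2-only region 101 bp from its start with folds of 13.2 and 6.73, where Sp5 replicate 1 had a fold of 5.10. The 10 control genes of adult tissues had 2 Sp5-only regions and none of the other classes.

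By mean rank of fold within the libraries, the 5 strongest Sp5-only regions were nearest to Prdm9, Lamtor3, Tie1, Ap1s1 and Cyb5r4. The region 41 bp from the end of Prdm9, a histone methyltransferase of meiotic recombination, had folds of 37.4 and 26.5, and the one 99 bp from Lamtor3, a part of the lysosomal Ragulator complex, 40.1 and 24.9. All 5 held a Zeb2 replicate 1 peak with folds of 4.55 to 6.36. The 5 strongest Zeb2-only regions were nearest to AI593442, Celsr1, Epha1, Rimbp3 and Scg3. The region near AI593442 had folds of 33.4 and 28.04, lay 128279 bp from the nearest gene end and held no p300. Celsr1, a cadherin of planar cell polarity, held an intragenic region whose Zeb2 folds were 24.6 and 24.5, and Epha1, an ephrin receptor of epithelial cells, one 26 bp from its end with folds of 25.5 and 24.2. Sp5 had a peak in 1 library at Celsr1 (fold 4.29), Epha1 (6.90) and Rimbp3 (13.2). The 5 strongest joint regions were nearest to Fcgr3, Ncoa4, Pou2f1, Lsm14b and Supt4a, with Fcgr3 at folds of 33.7 and 22.4 for Sp5 and 31.6 and 21.4 for Zeb2.

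Taken by region rather than by peak, joint regions were slightly stronger than single-factor regions in the list of each library. The median fold at joint against Sp5-only regions was 8.97 against 8.13 in Sp5 replicate 1 and 6.05 against 5.68 in replicate 2. For Zeb2 it was 7.66 against 7.07 in replicate 1 and 5.43 against 5.31 in replicate 2. By region the direction was the same in all 4 libraries, and the interquartile ranges of the classes overlapped widely. Taken by peak, the direction held in both Sp5 libraries and in Zeb2 replicate 1, but not in Zeb2 replicate 2. There the median fold was 5.280 at joint and 5.281 at Zeb2-only regions. The part of the greater width of joint regions in these differences was not tested.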

How the data were processed

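The deposited files were 1 peak list per library, not pooled between replicates. Tools named per the submitters' processing notes are MACS2 2.2.7, BWA 2.2.1 and fastp 0.20.1, and the build is GRCm38.p6 (mm10). What each tool did, and whether MACS2 had a control, is not given in the sources used here. In the deposited score column each value equals 10 times the −log10 q without its decimals. The fold enrichment (a linear ratio over local background) is as deposited, and so are the −log10 p and −log10 q, with no −log10 q under 1.30 in the Sp5 and Zeb2 files. Folds are the authors' own values and were ranked only within a list.

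Peaks on the 21 main chromosomes were used, input peaks (2 libraries) were removed, and regions were built as described with Python 3.11.15, pandas 2.3.3 and scipy 1.17.1. The steps were tested on simulated peak lists with known classes. Fragments at the summit were recovered from fold and −log10 p (whole within 0.01 of the −log10 p for 99.1% to 99.97% of peaks). Read totals are not given, so the depth of a library is known only through its fragments per peak, with medians of 12 to 26 over the whole lists. Gene positions came from a RefSeq table of the same build with no strand. A start, which the design preferred, was known for 17492 of 21887 genes through RefSeq promoter windows, so gene ends were the main measure and known starts an added alternative. Exon positions were not used here. Intervals are exact binomial (Clopper-Pearson, 95%) and cover counting error only, since neighbouring regions are not independent.

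Libraries, not regions, were the replicates of the exact permutation tests. Named genes were Sp5, Sp8, Zeb2, Zeb1, Axin2, Lef1, T, Cdx2, Cdh1 and Epcam, the 3 genes of each list with most regions, and the 5 strongest regions of each class, while genes at the printed windows were taken by strength. The members, lists and tests were chosen with earlier results of these data known. Alternatives were another list length, threshold, overlap, input treatment, distance and library set. The count of genes by library, the regions with no peak of the other factor in lists and motifs, the summit positions around starts and the printed windows were added after seeing the data.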

Additional observations from a re-analysis of the deposited data

How the results depend on the processing

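Over 4 libraries left out in turn, the Sp5-only regions numbered 1329 (without Zeb2 replicate 2) to 13458 (without Sp5 replicate 2), the Zeb2-only regions 4154 (without Sp5 replicate 2) to 34269 (without Zeb2 replicate 2) and the joint regions 4088 to 9559, the share of Sp5 regions in both 31.7% to 87.9% and that of Zeb2 regions 22.7% to 59.2%, with the most joint regions and the highest Sp5 share without Zeb2 replicate 2. The gene-end difference between Sp5-only and Zeb2-only regions was 7.97 to 30.4 points and the p300 difference -0.848 to 23.2 points, reversed without Sp5 replicate 2. For regions with no peak of the other factor, the gene-end difference was 7.72 points, the p300 difference -9.04 points, the shares in both 77.6% and 52.8%, and the epithelial share of Sp5-only regions 6.67%. At a −log10 q of at least 5, 2086 regions were joint, with 22.9% of Sp5 and 40.9% of Zeb2 regions. At equal list length 35.6% of Sp5 regions were joint. An overlap of 50% of the shorter gave 39.1% and 42.0%, and no removal at input peaks 42.0% and 45.5%. Apart from the sets of libraries and regions these settings change, the cause was not tested. The motif differences and the median summit distance kept their direction and stayed within 1.5 times of the reported value under every setting run, with GC box 48.0 to 56.5 points, CAGGTG -26.6 to -50.6 points and distance 154 to 187 bp over the libraries left out. With the replicate number as a block, the gene-end and p300 differences by library remained 18.7 and 15.4 points, with p = 0.5 in the exact sign-flip test, the smallest that 2 pairs allow. The labels do not say that the numbers pair the libraries. The planned genome windows on summits, wider than the 101 bp windows used here, were not run, as no genome was used.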
